A study of Danio rerio with 6 samples.

Results

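The BCL2 family genes described here were bcl2a, bcl2b, bcl2l1, bcl2l10, mcl1a and mcl1b, which encode pro-survival proteins, and baxa, baxb and bida, which encode pro-death proteins. They were chosen by name, and all 9 were measured among the 19260 genes of the array that carried a gene symbol of their own. Their symbols were attached to 11 transcript clusters, the probe groups that give 1 value per transcript and array, and the cluster with the highest mean over all arrays stood for each gene. The samples were whole larvae of the line Tg (mbp:nfsB-egfp) at 10 dpf. All larvae carried the transgene, in which the mbp (myelin basic protein) promoter directs a bacterial nitroreductase joined to GFP to myelin-forming cells. One group was kept in 5 mM metronidazole with 0.2% DMSO in E3 medium for 5 days from 5 dpf, in the dark. The control group was kept in E3 medium with 0.2% DMSO alone. The study's methods do not say whether the control larvae were also in the dark, so a difference in light cannot be told apart from the drug. Nitroreductase turns metronidazole into a toxic product. There were 3 arrays for metronidazole-treated larvae and 3 for control larvae, each with pooled RNA of 5 larvae, from 3 batches that the replicate numbers were taken to mark. Larvae without the transgene in metronidazole were not analysed here, so that effects of the drug outside the myelin-forming cells cannot be told apart from those of losing these cells.

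BCL2 family proteins control whether the outer membrane of mitochondria opens during apoptosis. BAX forms pores in that membrane, the pro-survival proteins BCL2, BCL-XL (the product of bcl2l1) and MCL1 hold it in check, and BH3-only proteins such as BID engage both kinds. Once the membrane opens, cytochrome c joins APAF1 to activate caspase 9, which cleaves the executioner caspases. In the immune system, interleukin 7 signalling through JAK kinases and STAT factors maintains the expression of bcl2. The study followed this route in the treated larvae. It measured the RNA of bcl2, jak1, jak3, stat3 and stat5 by qRT-PCR relative to β-actin at the same age. It also measured BCL2, caspases and phosphorylated JAK and STAT proteins by western blot, which have no counterpart in array values. The comparison therefore asks what the arrays show for bcl2a and its relatives.

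No BCL2 family gene passed the test between metronidazole-treated and control larvae. Of the 9 genes, 0 passed an adjusted p of 0.05 in limma without a batch term, where 0% of all genes passed. In this fit 0 of the 9 passed an unadjusted p of 0.05, where 5.94% of all genes did (1.68% higher and 4.27% lower). With the replicate number as a block, bcl2a had an unadjusted limma p of 0.0495 (limma adjusted p = 0.706). Treated and control arrays overlapped for every one of the 9 genes, while they did not overlap for 10.9% of all genes. The mean was higher in metronidazole-treated larvae for 8 of the 9 genes, against 53.5% of all genes, and the largest of these differences was 0.36 on the log2 scale, a 1.29-fold level. One array, metronidazole replicate 1, was the highest of the 6 for 8 of the 9 genes, against 23.3% of all genes. Without it, 5 of the 9 differences were above 0 and their median was 0.03, against 0.31 with all arrays.

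The values were log2 signals that the authors had brought to a common scale, with array medians between 5.10 and 5.14. The spread between arrays of a group was 0.22 in metronidazole-treated and 0.20 in control larvae (SD, median transcript cluster). In whole larvae, fewer cells of a type and less RNA per cell cannot be told apart, and a change in the myelin-forming cells is diluted by all other tissues. Of the markers of whole larvae, 14 of 14 listed for skeletal muscle and 9 of 10 for neurons were measured, none of them below the array median. Of the 9 measured myelin and oligodendrocyte markers 0 passed an unadjusted p of 0.05 (6 above and 3 below 0, median difference 0.05). Their summed signal, as log2, ran from 10.59 to 10.78 on the metronidazole arrays and from 10.65 to 10.73 on the control arrays. The gene mbpa, a gene of myelin basic protein, was at 8.28, 8.71 and 8.66 on the metronidazole arrays, against 8.69, 8.61 and 8.77 on the control arrays.

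The gene bcl2a encodes the founding pro-survival protein of the family, an ortholog of human BCL2. Its log2 signal was 8.84, 8.37 and 8.19 in metronidazole-treated larvae, against 8.55, 7.93 and 7.88 in control larvae. The groups overlapped, since control replicate 1 lay above metronidazole replicates 2 and 3. The mean was 8.47 ± 0.33 in metronidazole-treated and 8.12 ± 0.37 in control larvae (SD, n = 3), a log2 difference of 0.35 (standard error 0.25, limma adjusted p = 0.952). Within the 3 batches the treated array was above its control each time, by 0.29, 0.45 and 0.31. Differences above 0 in all 3 batches were seen for 15.8% of all genes. The 95% interval of the bcl2a difference ran from -0.25 to 0.95, which is 0.842- to 1.93-fold in this fit, which leaves out the pairing of the arrays by batch. With the replicate number as a block the interval was 0.0011 to 0.70, which excludes 0, while the limma adjusted p was 0.706. Leaving out metronidazole replicate 1 gave a difference of 0.16 and leaving out control replicate 1 gave 0.56. Each of these settings kept the other array of batch 1, so both values also hold differences between batches. A fit without both arrays of batch 1 was not run.

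**Figure D1:**
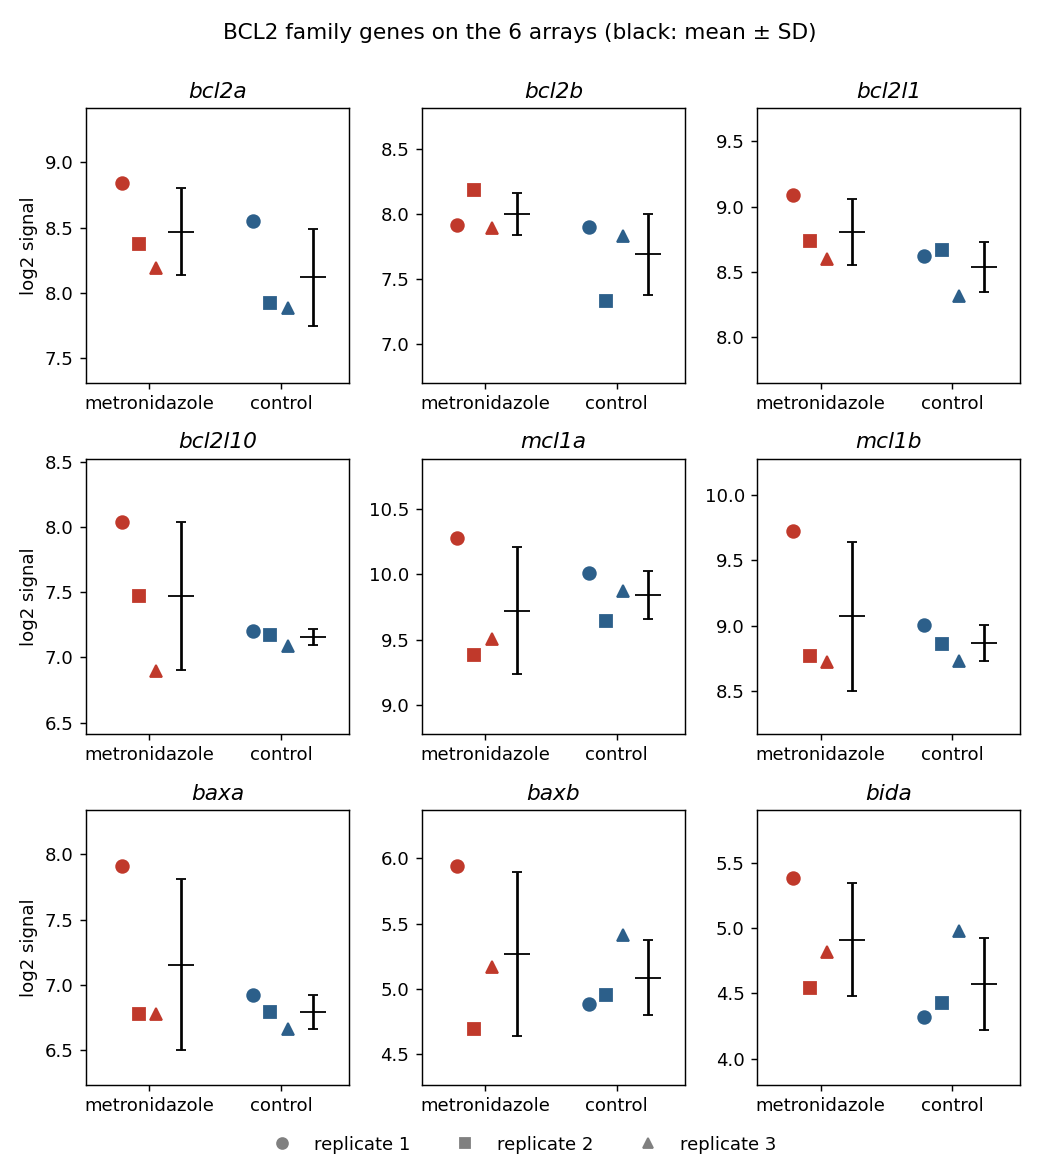
Log2 signal (vertical axis, a span of equal height in each panel) of the 9 BCL2 family genes on the metronidazole arrays (red, left) and the control arrays (blue, right), with the replicate number given by the marker and the mean ± SD of the 3 arrays in black. The groups overlap in every panel, and metronidazole replicate 1 (circle) is the highest point for 8 of the 9 genes, the exception being bcl2b.

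Because qRT-PCR values are relative to a reference gene, bcl2a was also set against both β-actin genes on the same array. The log2 signal of bcl2a minus that of actb2 was -1.74, -2.20 and -2.43 on the metronidazole arrays, against -1.92, -2.94 and -2.79 on the control arrays, so its mean was higher by 0.43 in metronidazole-treated larvae, with overlap, and the batches gave 0.18, 0.74 and 0.36. Relative to actb1 it was -0.53, -0.30 and -0.87 on the metronidazole arrays, against 0.39, -1.51 and -1.81 on the control arrays. The means differed by 0.41, but the batches disagreed, with -0.92, 1.21 and 0.93. The 2 references did not behave alike across arrays. The signal of actb1 was 9.37, 8.67 and 9.07 on the metronidazole arrays, against 8.15, 9.44 and 9.69 on the control arrays, and that of actb2 was 10.58, 10.57 and 10.63 on the metronidazole arrays, against 10.46, 10.86 and 10.67 on the control arrays. Which of the paralogs the qRT-PCR primers amplify was not determined here.

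The other pro-survival genes had small differences as well. The gene bcl2b is the second zebrafish copy of BCL2. Its signal was 7.91, 8.18 and 7.89 in metronidazole-treated larvae, against 7.90, 7.33 and 7.83 in control larvae. Control replicate 2 was the low array, and the difference of 0.31 (standard error 0.19) came mostly from the second batch, with 0.01, 0.85 and 0.06 within the batches. The gene bcl2l1, which encodes BCL-XL, was at 9.09, 8.74 and 8.60 in metronidazole-treated larvae, against 8.63, 8.67 and 8.32 in control larvae. Its difference was 0.27 (standard error 0.18) and the batches gave 0.46, 0.07 and 0.28. Thus bcl2a, bcl2b and bcl2l1 were the 3 of the 9 genes with 1 sign in all batches. For 31.6% of all genes the sign was the same in all 3 batches.

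The gene bcl2l10, whose product is related to the human pro-survival protein BCL2L10, was at 8.04, 7.47 and 6.90 in metronidazole-treated larvae, against 7.20, 7.17 and 7.09 in control larvae. The treated arrays thus lay both above and below the narrow range of the controls, and the difference was 0.32 (standard error 0.28). It was 0.03 without metronidazole replicate 1 and 0.60 without metronidazole replicate 3. A dimmer transcript cluster of the same gene gave 4.87, 4.49 and 4.16 in metronidazole-treated larvae, against 4.18, 4.37 and 4.26 in control larvae, with a difference of 0.24 (standard error 0.20). Both clusters had their highest value on metronidazole replicate 1 and their lowest on metronidazole replicate 3.

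MCL1 is a short-lived pro-survival protein, and zebrafish have the copies mcl1a and mcl1b. The gene mcl1a was at 10.28, 9.39 and 9.50 in metronidazole-treated larvae, against 10.01, 9.64 and 9.87 in control larvae. It was the only one of the 9 genes with a lower mean in metronidazole-treated larvae (log2 difference -0.12, standard error 0.26), and without metronidazole replicate 2 its difference was 0.05. Its second transcript cluster had a difference of 0.08 (standard error 0.25), of the opposite sign, so neither cluster sets a direction. The gene mcl1b was at 9.73, 8.77 and 8.72 in metronidazole-treated larvae, against 9.0, 8.86 and 8.73 in control larvae. Metronidazole replicate 1 stood apart and the other arrays lay close together, and the difference of 0.21 (standard error 0.28) was -0.12 without that array.

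The pro-death genes were uneven over the treated arrays as well. The gene baxa encodes the pore-forming protein Bax. Its signal was 7.91, 6.77 and 6.78 in metronidazole-treated larvae, against 6.92, 6.80 and 6.66 in control larvae. The difference was 0.36 (standard error 0.32), the largest of the 9, but metronidazole replicates 2 and 3 lay within the range of the controls, and without metronidazole replicate 1 the difference was -0.016. The gene baxb, a relative of baxa, was at 5.94, 4.69 and 5.17 in metronidazole-treated larvae, against 4.88, 4.95 and 5.41 in control larvae. Its difference was 0.18 (standard error 0.33), and -0.16 without metronidazole replicate 1. The gene bida, which encodes the BH3-only protein Bid that caspase 8 activates by cleavage, was at 5.38, 4.54 and 4.81 in metronidazole-treated larvae, against 4.32, 4.42 and 4.98 in control larvae. Its difference was 0.34 (standard error 0.27), and the batches gave 1.07, 0.11 and -0.16. The signals of bida and baxb lay near the array medians given above.

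**Figure D2:**
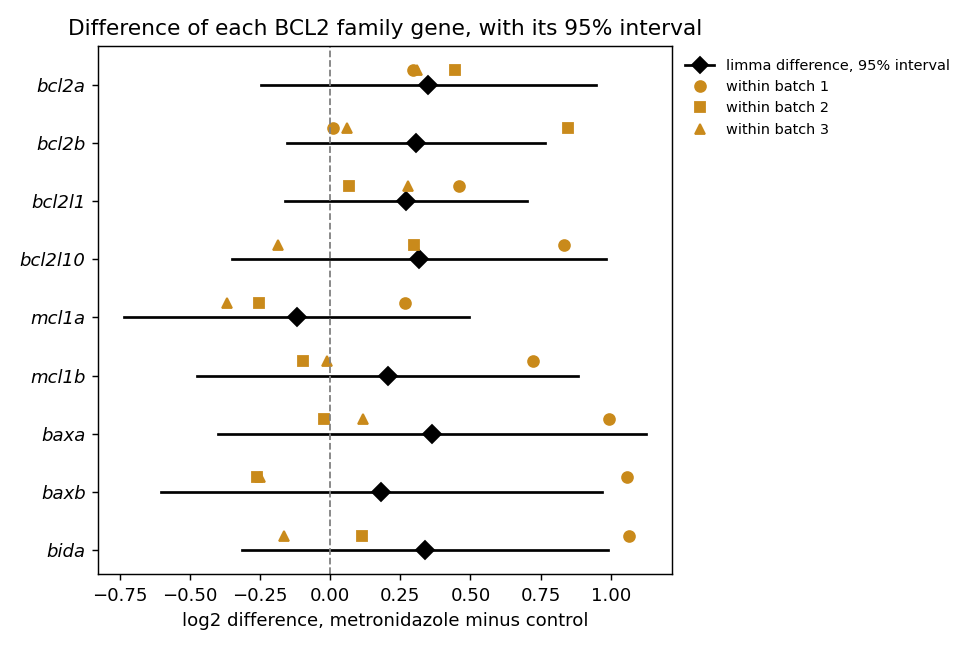
Log2 difference, metronidazole minus control (horizontal axis), for each of the 9 genes, with the limma estimate and its 95% interval in black and the difference within each of the 3 batches in orange. Every interval of this fit, which has no batch term, spans 0, and the batch 1 point lies far to the right for baxb (1.06), bida (1.07) and baxa (0.99).

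The intervals of the fit without a batch term give the sizes that this fit would still allow. The lowest bound over the 9 genes was 0.601-fold, for mcl1a, and the highest was 2.18-fold, for baxa. A level of 0.5-fold was thus outside the interval of all 9 genes, and a level of 2-fold was outside that of 8. The share of all genes whose intervals leave out these levels was not counted, so these counts cannot be called particular to the family. With the replicate number as a block, the lowest bound was 0.659-fold, for baxb, and the highest 2.04-fold, for bida, while that of baxa was 1.97-fold. In the fit without a batch term, the median standard error was 0.27 for the 9 genes and 0.19 for all genes. By the difference itself and not its interval, 0.218% of all genes were at least 2-fold higher and 2.02% at most 0.5-fold. The median difference was 0.29 for the 6 pro-survival genes and 0.34 for the 3 pro-death genes, against 0.02 over all genes, and the pro-death median was -0.016 without metronidazole replicate 1.

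Metronidazole replicate 1 was the highest array for 24 of 66 other apoptosis genes, beside the 8 of 9 in the BCL2 family. It exceeded the mean of metronidazole replicates 2 and 3 by between 0.42 (bcl2l1) and 1.14 (baxa) for these 8 genes, while bcl2b was lower by 0.12 there. The range over the metronidazole arrays was wider than that over the control arrays for 7 of the 9 genes, against 52% of all genes. For baxa the range was 1.14 over the metronidazole arrays and 0.26 over the control arrays, and metronidazole replicates 2 and 3 differed by 0.003. The same array also stood apart in genes of other tissues. The matrix protease gene mmp9, which inflamed tissue expresses, was at 11.00 on metronidazole replicate 1, against 5.18 and 6.80 on metronidazole replicates 2 and 3 and 5.09, 5.77 and 6.06 on the control arrays. It was picked after its values were seen from 9 measured neutrophil and macrophage markers, of which 3 had differences above 0 and 6 below, with 4 of the 6 past an unadjusted p of 0.05. The summed signal of 11 enterocyte markers, cells of the gut lining, ran as log2 from 11.03 to 12.60 on the metronidazole arrays and from 12.80 to 13.16 on the control arrays, with a difference below 0 for 11 of 11 and 10 of 11 without metronidazole replicate 1. The array medians of these markers, each relative to its own mean, were -1.33, 0.17 and -0.51 on the metronidazole arrays. The marker fabp2, picked after the data were seen, was at 5.91, 9.92 and 9.26 on the metronidazole arrays, against 9.54, 10.68 and 10.64 on the control arrays. The marker vil1, picked likewise, was at 6.25, 9.10 and 8.49, against 8.56, 9.59 and 9.59. Among the treated arrays, cdx1b, apoa4a, mep1ba and slc15a1b were instead lowest on replicate 3. For cdx1b the highest treated value was on replicate 1. The epidermis and hepatocyte markers, taken in the same way, had medians of -1.03 and -0.98 on metronidazole replicate 1. The exocrine pancreas markers had -0.44, -0.05 and -0.37 on the metronidazole arrays. Their differences were below 0 for 12 of 12, with 9 of them without overlap and 7 past an unadjusted p of 0.05. Of all genes, 5.73% were lower without overlap and 4.27% lower at that p. The part of these cells in the values of the BCL2 family genes was not tested.

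**Figure D3:**
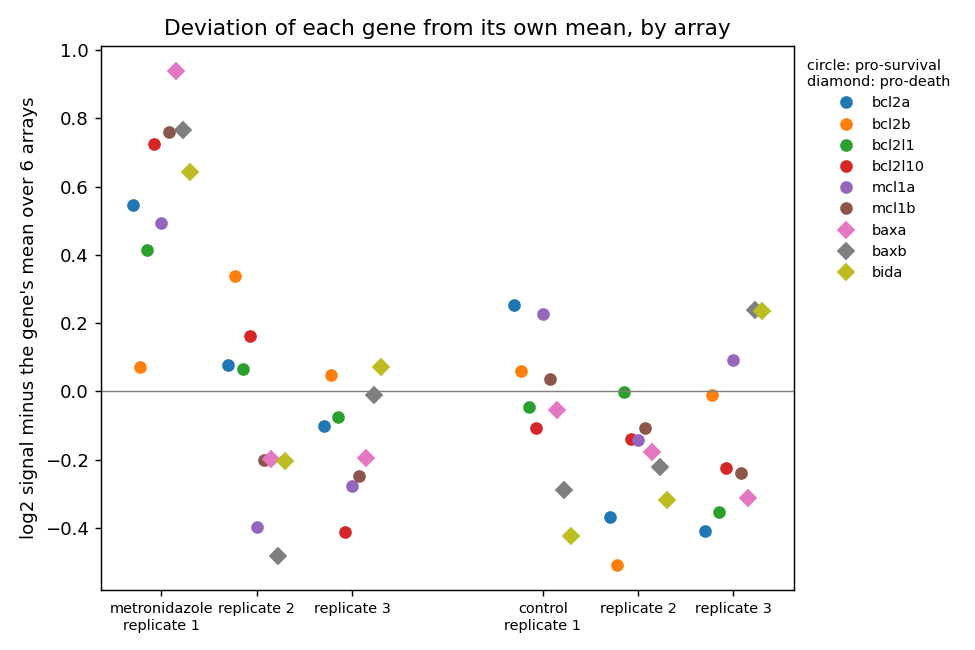
Log2 signal of each BCL2 family gene minus its own mean over the 6 arrays (vertical axis), for the 3 metronidazole arrays on the left and the 3 control arrays on the right, with circles for pro-survival and diamonds for pro-death genes. On metronidazole replicate 1 all 9 genes lie above 0 and both kinds are raised together, while all 9 lie below 0 on control replicate 2, and the other 4 arrays hold genes on both sides of 0.

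The balance between a pore former and its inhibitors was described by differences of log2 signals on the same array, whose shift between groups, not their level, can be read. The signal of baxa minus that of bcl2a was -0.93, -1.60 and -1.42 on the metronidazole arrays, against -1.63, -1.13 and -1.22 on the control arrays. The means differed by 0.01, with 0.70, -0.47 and -0.19 within the batches, so no shift of baxa relative to bcl2a was seen across batches. Relative to bcl2l1 the shift was 0.09 and relative to bcl2b 0.06, both with overlap between groups. Relative to mcl1a, baxa was at -2.36, -2.61 and -2.73 on the metronidazole arrays, against -3.09, -2.84 and -3.21 on the control arrays, a shift of 0.48 with no overlap. That shift holds for the brighter transcript cluster of mcl1a only, whose own difference was -0.12. The second cluster of mcl1a, with a difference of 0.08, was not set against baxa. Relative to mcl1b the values were -1.81, -1.99 and -1.94 on the metronidazole arrays, against -2.08, -2.07 and -2.07 on the control arrays, a shift of 0.16 with no overlap. The 4 relations other than that to bcl2a were chosen after the data were seen. Set against every other gene in the same way, baxa was higher with no overlap for 6.37% of them.

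The array held few executioner caspases with a symbol of their own. The gene casp3b, a copy of caspase 3, was at 7.29, 6.92 and 6.75 in metronidazole-treated larvae, against 6.12, 7.04 and 7.41 in control larvae. Control replicate 1 was the lowest array and control replicate 3 the highest, and the difference of 0.13 (standard error 0.34, limma adjusted p = 0.978) was 1.17, -0.12 and -0.66 within the batches. It turned to -0.24 without control replicate 1. The related gene casp6b.2, looked up after the data were seen, was at 3.61, 3.59 and 3.61 in metronidazole-treated larvae, against 3.75, 3.55 and 3.39 in control larvae, with a difference of 0.04 (standard error 0.14), at a signal far below the array median. The gene casp3a was not analysed here. Array values give RNA levels, and neither cleavage of caspases nor protein levels.

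Upstream of the executioners, 5 initiator caspases were measured, and 0 of 5 passed an unadjusted p of 0.05 in either direction. The gene casp9, whose product the apoptosome activates, was at 9.94, 7.42 and 8.02 in metronidazole-treated larvae, against 8.33, 7.26 and 7.56 in control larvae. Its difference was 0.75 (standard error 0.65), with 1.61, 0.16 and 0.46 within the batches. It was 0.01 without metronidazole replicate 1, the array that was also the highest for 8 of the 9 BCL2 family genes. That setting kept control replicate 1, the highest control array for casp9, so it also holds a difference between batches. The gene casp8l1, a relative of caspase 8, was at 3.02, 3.35 and 3.38 in metronidazole-treated larvae, against 3.59, 3.50 and 3.78 in control larvae, with each treated array below each control array (log2 difference -0.37, standard error 0.16). Both groups were dim. Of 12 measured genes of the apoptosome and of the caspase inhibitors, 7 had differences above 0 and 5 below, with a median of 0.01 and 0 past an unadjusted p of 0.05. Among them diabloa, whose product blocks the inhibitors of caspases, had a difference of -0.77 (standard error 0.49), aifm1 -0.39 (standard error 0.25) and birc2, such an inhibitor, 0.33 (standard error 0.24). Without metronidazole replicate 1 these were -0.43, -0.11 and 0.07, and diabloa was at -1.34 without metronidazole replicate 2.

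Some BH3-only proteins, such as Bim, set off Bax or neutralize the pro-survival proteins. Of 15 symbols listed as BH3-only genes, 9 were measured, and 8 of the 9 had a higher mean in metronidazole-treated larvae. The median was 0.26 and 0 passed an unadjusted p of 0.05 in the fit without a batch term. Within the 3 batches the medians of the list were 0.25, 0.24 and 0.19. Without metronidazole replicate 1, but with control replicate 1 kept, 5 of the 9 were above 0 and the median was 0.08. The gene bcl2l11, which encodes Bim, was at 7.41, 6.34 and 6.20 in metronidazole-treated larvae, against 6.47, 5.65 and 6.03 in control larvae, with 0.94, 0.70 and 0.17 within the batches (log2 difference 0.60, standard error 0.37). With the replicate number as a block its unadjusted limma p was 0.027 (limma adjusted p = 0.655). Without metronidazole replicate 1 the bcl2l11 difference was 0.22. The gene bnip3, a mitochondrial protein gene of the response to low oxygen, had a difference of 0.43 (standard error 0.29) and bnip3lb, its relative, 0.32 (standard error 0.30), or 0.30 and 0.09 without that array. Within the batches bnip3 gave 0.04, 0.54 and 0.70, and bnip3lb gave 0.25, 0.24 and 0.47. Other multidomain relatives of the family went mostly the other way, with 4 of 5 lower and a median of -0.18. The gene boka, a copy of the pro-death gene BOK, was at 5.21, 5.78 and 5.75 in metronidazole-treated larvae, against 5.80, 6.17 and 5.86 in control larvae. The gene bcl2l16 was at 6.42, 6.34 and 6.32 in metronidazole-treated larvae, against 6.55, 6.56 and 6.52 in control larvae. Both had all treated arrays below all control arrays, 2 of 5 genes, against 5.73% of all genes lower without overlap. The differences of boka and bcl2l16 were -0.36 (standard error 0.20) and -0.18 (standard error 0.12), while bokb had -0.60 (standard error 0.39) with overlap.

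Further from the mitochondrion, 16 death receptor genes were measured, 8 with a higher and 8 with a lower mean and a median of -0.01. This even split hung on 1 array. Without metronidazole replicate 1, 1 gene was above 0 and 15 below, with a median of -0.15, where 53.7% of all genes were above 0. The medians within the batches were 0.56, -0.21 and -0.48. Of the 16 genes, 0 were past an unadjusted p of 0.05 in the fit without a batch term. The ligand gene tnfsf10 had the largest difference of the 16, -1.09 (standard error 0.54), with 4.67, 6.03 and 6.27 in metronidazole-treated larvae, against 6.03, 6.58 and 7.64 in control larvae. With the replicate number as a block the unadjusted limma p of tnfsf10 was 0.0039 (limma adjusted p = 0.505). Its relative tnfsf10l had -0.29 (standard error 0.19) and the kinase gene ripk1l -0.30 (standard error 0.25). Of 18 genes for proteins that anchor or bind BCL2 family members, the median was 0.00. The gene bnip1b was the only one of 66 other apoptosis genes with an unadjusted p under 0.05 in the fit without a batch term. It was at 5.47, 5.55 and 5.35 in metronidazole-treated larvae, against 4.94, 5.09 and 5.22 in control larvae (log2 difference 0.37, standard error 0.14, limma adjusted p = 0.952). With the replicate number as a block the unadjusted limma p of bnip1b was 0.060. In the same list bnip2 had 0.28 (standard error 0.17) and the mitochondrial channel gene vdac2 0.18 (standard error 0.16). Of these 66 genes, 1 was higher without overlap and 3 lower, against 5.14% and 5.73% of all genes. Their median difference was 0.02, as over all genes, with 38 of 66 above 0. Without metronidazole replicate 1 the median was -0.06 with 24 of 66 above 0, while that of all genes stayed at 0.02.

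**Figure D4:**
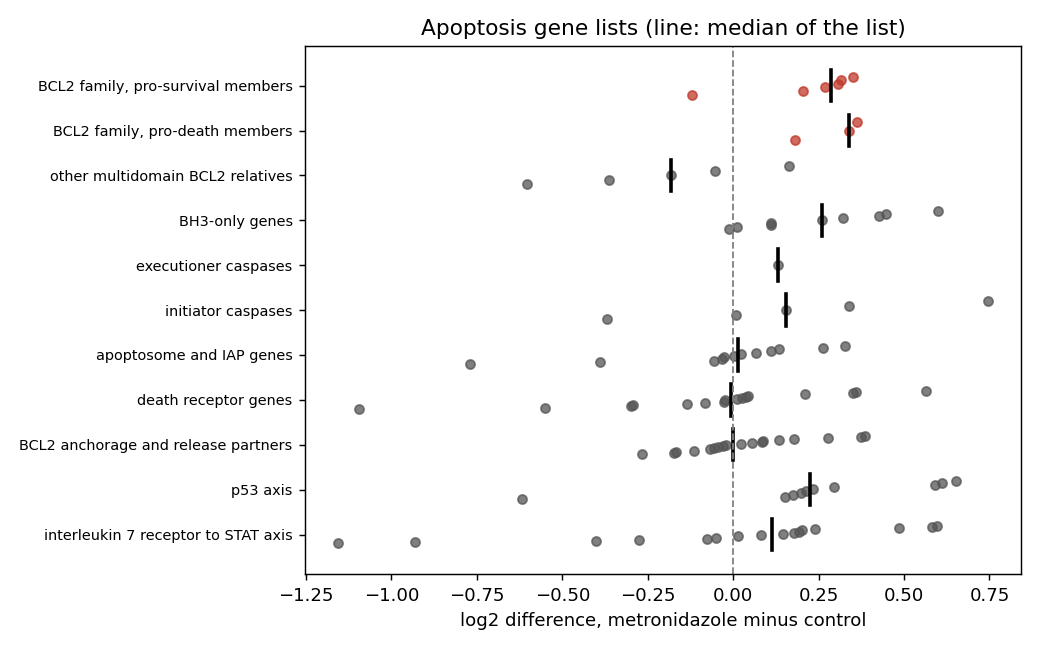
Log2 difference, metronidazole minus control (horizontal axis), of each measured gene in the BCL2 family (red) and in 9 related lists (grey), with the median of each list as a black line. No gene shown passes the adjusted p. The medians of the BCL2 family (0.29 and 0.34), the BH3-only genes (0.26), the p53 axis (0.22), the initiator caspases (0.15), casp3b (0.13) and the interleukin 7 list (0.11) lie to the right of 0. Without metronidazole replicate 1, the initiator caspases (-0.14), casp3b (-0.02), the interleukin 7 list (-0.06) and the pro-death genes (-0.016) lay below 0. The pro-survival genes (0.08), the BH3-only genes (0.08) and the p53 axis (0.18) stayed above it.

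The tumour suppressor p53 induces baxa and several BH3-only genes, and interleukin 7 signalling acts on bcl2, so the neighbouring lists were read as well. Of 10 measured genes of the p53 axis, 9 had a higher mean in metronidazole-treated larvae, with a median of 0.22. Without metronidazole replicate 1 these were 7 of 10 and 0.18. Of the 10, 0 were past an unadjusted p of 0.05 in the fit without a batch term. The p53 target gene tp53inp1 was at 10.20, 9.28 and 9.06 in metronidazole-treated larvae, against 9.12, 8.92 and 8.67 in control larvae, again with metronidazole replicate 1 at the top (log2 difference 0.61, standard error 0.31, and 0.27 without that array). The gene gadd45ab was higher by 0.23 (standard error 0.14) with no overlap, and sesn3 had -0.62 (standard error 0.28). With the replicate number as a block the unadjusted limma p was 0.028 for tp53inp1 and 0.013 for sesn3 (limma adjusted p = 0.655 and 0.575). Along the interleukin 7 route, il7r, the common gamma chain gene il2rga and jak3 each had all treated arrays below all control arrays. Each also had an unadjusted limma p under 0.05, 3 of 16 measured genes, against 4.27% of all genes lower at that p. Of the 16 genes, 2 were higher with no overlap, against 5.14% of all genes. These were il2rgb, the other gamma chain gene listed (0.15, standard error 0.12), and pim1 (0.48, standard error 0.30). The kinase gene jak3 was at 4.32, 4.30 and 4.53 in metronidazole-treated larvae, against 4.60, 4.76 and 4.99 in control larvae, a difference of -0.40 (standard error 0.15), at a signal below the array median. For il7r and il2rga the differences were -1.16 (standard error 0.30) and -0.93 (standard error 0.24). The il7r signal was 4.58, 4.61 and 4.56 on the metronidazole arrays, against 5.21, 5.59 and 6.43 on the control arrays. Its treated values were thus all below the array medians, and how far they lay above background is not known. Some immune cell markers were also lower on the treated array in each of the 3 batches. Of the 9 neutrophil and macrophage markers, mpeg1.1 (-1.40), cd74a (-2.05), spi1b (-0.44) and coro1a (-0.89) passed an unadjusted p of 0.05. Of 11 lymphocyte and thymus markers, il7r itself and ccr9a (-0.49) passed it. The differences of this second list were above 0 for 4, among them rag1 (0.13) and cd8a (0.13). They were below 0 for 7, il7r included, with a median of -0.11. As log2, the summed signal of the first list was 9.50 to 12.00 on the metronidazole and 9.91 to 10.49 on the control arrays. That of the second list was 8.29 to 8.37 on the metronidazole and 8.37 to 8.86 on the control arrays. This second sum includes il7r itself, so it does not describe lymphocytes apart from that gene. A sum without il7r was not taken. The part of these cells in the result was not tested. The genes jak1 and stat3, by contrast, had 0.19 (standard error 0.33) and 0.24 (standard error 0.38), and -0.20 and -0.22 without metronidazole replicate 1. None of these genes passed the adjusted p (0.952 or more), and within each of the 3 batches the treated array was higher than its control for bcl2a and lower for il7r, il2rga and jak3.

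Among 9629 other genes with a mean above the median of all genes, those whose signal ran most like that of bcl2a over the 6 arrays were pknox1.2, camk2n2a and btbd9, with Pearson correlations of 0.996, 0.994 and 0.992. They were picked as the highest of so many, and 180 genes reached 0.95 or more. For pknox1.2, camk2n2a and btbd9, metronidazole replicate 1 was the highest and control replicate 3 the lowest array, as for bcl2a. Since they were picked by correlation over the same arrays, this is not a separate result. The gene pknox1.2, a homeobox transcription factor gene, was at 9.07, 8.51 and 8.40 in metronidazole-treated larvae, against 8.77, 8.02 and 7.96 in control larvae. Of the BCL2 family, bcl2l1 and baxa came closest to bcl2a, with 0.81 each, and bcl2b was least like it among the 6 relatives above that median, with 0.52. All of these correlations share the same 6 arrays.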

How the data were processed

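Total RNA from whole transgenic larvae was hybridized to Affymetrix zebrafish Gene ST arrays. The authors deposited log2 signals for 75212 transcript clusters, already summarized and on a common scale. The labels name MAS5 without its role, and the normalization and background correction are not given in the sources used here. Depth has no meaning for arrays, and their number limits the precision. The platform's table gave 1 gene symbol for 20806 transcript clusters, several for 855 and none for 53551. Names in RefSeq (GRCz12tu) were found for 20323 of the first. The transcript cluster with the highest mean stood for each of 19260 genes. No sequences or positions are given.

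Groups came from the sample titles. The metronidazole and control arrays entered lmFit and eBayes of limma 3.58.1 (R 4.3.3) with all transcript clusters. Tests were two-sided, the fit left 4 residual degrees of freedom and the prior added 2.69. Batch was left out. The study's statistics section names Student's t-test for independent groups in general, and for the arrays only fold limits. P-values were adjusted by the method of Benjamini and Hochberg over all transcript clusters, at 0.05. Intervals are limma's 95% intervals. Batch differences are treated minus control arrays of 1 replicate number. Between same-numbered arrays, deviations from group means had correlations of 0.241, 0.148 and 0.127, against -0.171 to 0.051 for other pairs, and the methods describe 3 batches of larvae, so the numbers were taken to pair the arrays. Part of this contrast is built in, since deviations sum to 0 within a group. The fit was tested on simulated data with independent noise on each array, without batches or an array that stood apart. That test cannot show how the fit performs on arrays with these features. Python 3.11.15, pandas 2.3.3 and matplotlib 3.10.9 served for tables and figures.

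The genes, lists and tests were chosen with earlier results of these data known, so the lists were described by counts and medians and not tested. Named were all 9 members, casp3b, up to 3 genes of each list with the lowest p, and the 3 genes most like bcl2a. The genes jak1, stat3, il2rgb, pim1, mmp9, mbpa, casp6b.2 and the immune cell markers were added after their values were seen. So were the enterocyte markers fabp2, vil1, cdx1b, apoa4a, mep1ba and slc15a1b and the relations of baxa to genes other than bcl2a. The alternatives were quantile normalization, median centring, transcript clusters above the median, the replicate block, leaving out single arrays, a trend with intensity, array weights, a fit on 1 transcript cluster per gene, the mean of a gene's clusters, linear in place of log2 signals, and the methods' t-test.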

Additional observations from a re-analysis of the deposited data

How the results depend on the processing

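None of the 9 BCL2 family genes passed the adjusted p under any of the 16 alternatives that tested it (lowest limma adjusted p = 0.537, for bcl2b with array weights). The ratio of linear signals gives no p, and bida was too dim for the setting of transcript clusters above the median. With the replicate number as a block, bcl2a was 1 gene past an unadjusted p of 0.05 (difference 0.35, limma adjusted p = 0.706), and the block changed no call at the adjusted p. At the unadjusted p the block also moved bcl2l11, tnfsf10, sesn3 and tp53inp1 under 0.05 and bnip1b over it. Of the 9, 1 gene passed the unadjusted p without control replicate 1 (bcl2a) and 1 without metronidazole replicate 3 (bcl2l10), against 0 under the other alternatives. The bcl2a difference lay between 0.33 and 0.35 with all arrays and between 0.16 and 0.56 with 1 array left out. Leaving out 1 array keeps the other array of its batch, so all such values also hold differences between batches. Leaving out 1 array at a time, the median of the pro-survival genes ran from 0.08 to 0.38 and that of the pro-death genes from -0.016 to 0.53, the lowest without metronidazole replicate 1. The shift of baxa relative to bcl2a ran from -0.18 (without metronidazole replicate 1) to 0.16, and leaving out control replicate 1 gave -0.14. Single genes also turned in sign over the same settings. Without metronidazole replicate 1 these were mcl1b (-0.12, range to 0.38), baxa (-0.016, range to 0.55), baxb (-0.16, range to 0.47), jak1 (-0.20, range to 0.46), stat3 (-0.22, range to 0.51) and casp3b (-0.02). The range of casp3b was -0.24 to 0.41, and array weights gave -0.089. Without metronidazole replicate 2, mcl1a was at 0.050 (range from -0.40) and actb1 at 0.12. Without control replicate 2, casp2 was at -0.018 (range to 0.29), actb2 at 0.022 (range from -0.18) and actb1 at 0.11. Without control replicate 3, actb1 was at 0.24 (range from -0.53) and casp6b.2 at -0.048 (range to 0.13). The cause was not tested. How far dim genes such as bida and casp6b.2 lay above background is not known, since no detection values were used here.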
